A study of Mus musculus with 2 samples.

Results

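The genes described here are expressed protein-coding genes whose RNA, as deposited, was assigned in large part to transcripts annotated as targets of nonsense-mediated decay (NMD). A gene was taken if it has a protein-coding transcript, if it reached at least 10 TPM (a transcript abundance scaled to length and to a fixed library total) in both libraries, and if its NMD transcripts took at least 30% of its summed transcript TPM in both. Of 55536 genes in the tables, 4332 were expressed coding genes by this rule and 1520 of these have an annotated NMD transcript. The share threshold was passed by 93 genes, 6.12% of the 1520. Leaving out 6 genes by symbol (those starting with Srsf, Hnrnp, Clk, Rpl or Rps) gave the 87 genes described. The genes were thus chosen by these shares and levels, measured in both libraries, so the shares are given as a description and were not tested.

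The RNA came from C57BL/6J bone marrow-derived macrophages, cells grown in culture from marrow precursors. Per the labels they had met Lipid A, the Toll-like receptor 4 ligand of bacterial lipopolysaccharide, at 100 ng/ml for 12 h, had then been without it for 12 h, and were harvested at 0 min of a second exposure. Ribosomal RNA was depleted from RNA of the nucleoplasmic fraction, and 2 libraries, biological replicates 1 and 2 from separate biosamples, were made from 1 µg and 500 ng of RNA. Both belong to the same group and no other condition was analysed here, so spreads between them measure only these 2 samples, and no test between conditions was made. Sex and age were not collected.

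NMD is a surveillance pathway of translated RNA. A ribosome that stops at a stop codon with an exon junction complex still bound downstream recruits UPF and SMG proteins, and the RNA is degraded. Since the signal is read during translation, RNA that has not left the nucleus has in general not met it. Coupling of alternative splicing to NMD is known as a means by which splicing factors limit their own level. An annotated NMD transcript is a prediction from the position of its stop codon, and decay itself was not measured in these libraries.

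The libraries held 22907860 (replicate 1) and 18612363 (replicate 2) expected counts on annotated genes, and the 87 genes held 301131 and 223270 of them, with at least 115 in either library for each gene. A second deposited quantification, estimated straight from the reads, held 30418738 and 32278893 estimated counts. Replicate 2 was thus the smaller library by expected counts and the larger by the second quantification. Macrophage marker genes were at 1 TPM or more in both libraries in 20 of 20 cases, while of the markers of the other cell types listed, Kit and Acp5 alone reached 1 TPM in either library. The strand setting of the counting is not given in the sources used here, so values of overlapping, antisense and near-identical genes are uncertain. In RNA pooled from many cells, fewer cells with a transcript and less of it per cell cannot be told apart.

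The way in which an NMD transcript gains its early stop is shown first for extra exons and kept introns, since there the sequence itself carries the stop. In each line below, the 12 lower-case letters are the end of the preceding exon, and the capitals are the extra exon or the kept intron up to and including the in-frame stop codon, which is the last 3 letters. For Bak1 and Arih2 the capitals are the whole extra exon, and the stop follows in the next exon. Sequences are from the GENCODE mouse release 21 transcripts, read 5′ to 3′ on the gene's strand, with the mm10 position of the whole extra exon or intron. The extra exons come from the genes of highest share in which no coding transcript contains the exon, the shorter ones being printed. The introns were chosen after their values were seen.
Bak1, extra exon, chr17:27021663-27021682, minus strand: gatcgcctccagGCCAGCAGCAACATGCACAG
Rabggtb, extra exon, chr3:153910064-153910161, minus strand: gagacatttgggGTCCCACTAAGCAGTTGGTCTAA
Il4ra, extra exon, chr7:125571934-125572047, plus strand: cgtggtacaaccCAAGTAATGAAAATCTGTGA
Arih2, extra exon, chr9:108629289-108629334, minus strand: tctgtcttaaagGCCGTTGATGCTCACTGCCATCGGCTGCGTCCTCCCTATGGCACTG
Spcs2, extra exon, chr7:99840692-99840824, minus strand: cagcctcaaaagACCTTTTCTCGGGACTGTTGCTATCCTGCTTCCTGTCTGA
Ccnl1, extra exon, chr3:65955130-65955276, minus strand: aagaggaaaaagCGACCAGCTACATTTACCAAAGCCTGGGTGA
Stard9, extra exon, chr2:120684592-120684718, plus strand: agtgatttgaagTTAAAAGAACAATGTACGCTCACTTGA
Dnajc5, extra exon, chr2:181548926-181549000, plus strand: ctgatgaaagggGAGGGCACTGA
Ddx5, kept intron, chr11:106782694-106783958, minus strand: ccagagggctagGTTAG
Tmem208, kept intron, chr8:105328459-105328607, plus strand: gggcatggcagaGTGA
Plpp5, kept intron, chr8:25721787-25722429, plus strand: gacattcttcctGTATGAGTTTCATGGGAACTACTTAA
Fes, kept intron, chr7:80384018-80384190, minus strand: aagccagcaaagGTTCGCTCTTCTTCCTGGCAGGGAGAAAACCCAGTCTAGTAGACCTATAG

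In Tmem208-204 the TGA is made from bases 2 to 4 of the kept intron, and in Ddx5-208 the TAG is bases 3 to 5. The exon of Bak1 is 20 bases long, which is not a multiple of 3, so it moves the reading frame. The stop of the Bak1 transcript is therefore inside an exon that the coding transcript also has.

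Over the 87 genes the median NMD share was 42.9% of transcript TPM in replicate 1 and 47.4% in replicate 2, or 45.1% ± 3.17 (SD, n = 2). Over all 1520 expressed genes with an NMD transcript the median was 3.27% and 3.29%. In 22 of the 87 genes the share passed 50% in both libraries. NMD transcripts had more TPM than coding transcripts in both libraries for 51 genes, and less in both for 24. These counts follow in part from the rule and are not given for the 1520. The median share of coding transcripts was 35.6% and 33.5% over the set, against 54.7% and 53.6% over the 1520. Median gene levels, 23.4 and 23.3 TPM, lay near those over the 1520, 23.7 and 23.2 TPM. The set held 32.2% of all NMD transcript TPM in replicate 1 and 28.6% in replicate 2. Ddx5, Mx1 and Oasl2 together made up 40.8% and 34.4% of the NMD TPM of the set.

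**Figure D1:**
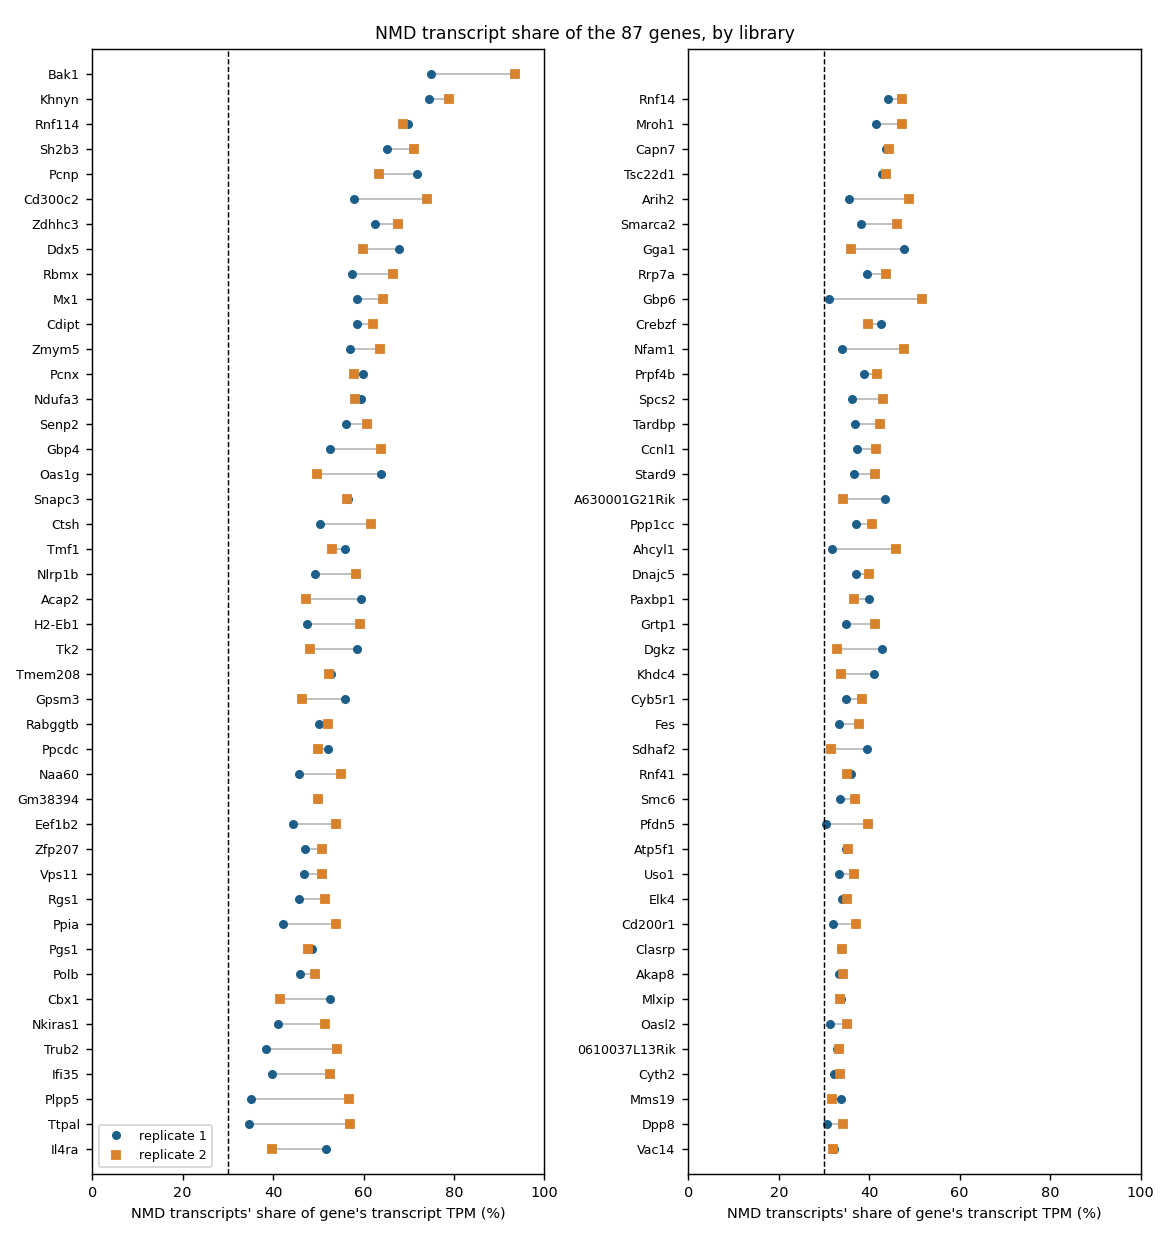
NMD share of each gene's summed transcript TPM, in percent, for the 87 genes ordered by their mean share, with circles for replicate 1, squares for replicate 2 and a dashed line at the 30% threshold. Bak1 stands highest at 75.0% and 93.5%, and most genes lie between 30% and 60% in both libraries.

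The values close to the threshold show how the set is bounded. Just inside it were Pfdn5, a prefoldin subunit, with shares of 30.5% and 39.8%, Dpp8 with 30.6% and 34.2%, and Gbp6 with 31.0% and 51.6%. Just outside were Mbd6, a methyl-CpG-binding domain protein, with 29.97% and 32.3%, Agtpbp1, a carboxypeptidase of tubulin, with 29.7% and 43.7%, and Scaf11, a splicing-associated factor, with 38.0% and 29.7%. Among the genes left out by symbol, Hnrnpa1 had 85.0% and 83.1%, close to Bak1.

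The leading NMD transcript of each gene, the one with the highest mean TPM, was compared exon by exon with its leading coding transcript. A splice site not used by the coding transcript was found in 51 genes (49.6% of the 1520), a skipped exon in 27 (32.8%), an extra exon in 19 (31.0%), a new last exon in 12 (10.9%) and a new first exon in 5 (11.9%), where a gene can be in several classes. A whole coding-transcript intron was kept in 13 genes, 14.9% of the set, against 5.07% of the 1520. The stop codon itself was inside exon sequence of the coding transcript in 44 genes (54.7% of the 1520), in an extra exon in 12 (21.9%), in a kept intron in 6 (1.51%) and elsewhere outside coding exons in 16 (18.2%). In the other 9 genes (3.75%), Cbx1, Crebzf, Elk4, Gm38394, Naa60, Prpf4b, Rrp7a, Tardbp and Zfp207, both transcripts end translation at the same stop. Gm38394 and Naa60 have no exon or junction difference from coding transcripts among these classes. The percentages for the set and for the 1520 are set side by side without a test.

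In all 87 genes the stop lay over 50 bases before the last exon junction, with a median distance of 352 bases and a range of 52 to 12430. The median over the 1520 was 344.5 bases. Since the NMD label is itself predicted from the position of the stop, such distances are favoured by the label. The leading NMD transcript had a median length of 2420 bases, against 1190 over the 1520, and was shorter than the leading coding transcript in 48 genes, 55.2% of the set against 81.8%. It had at least 200 bases outside all coding exons in 34 genes (19.6% of the 1520). In 29 genes (39.7%) it had no base of its own against coding exons, and in 4 genes, Gm38394, Naa60, Pfdn5 and Rnf14, it had no junction of its own either (1.78%). Against all transcripts other than NMD transcripts, 10 genes had neither, 11.5% of the set and 6.58% of the 1520. To these 4 genes this adds Crebzf, Ndufa3, Paxbp1, Plpp5, Ppcdc and Prpf4b. The bases of the Plpp5 intron printed above are thus also in exons of transcripts of other types. For Gm38394, which overlaps Zc3h11a and Zbed6, the NMD and the coding transcript have identical sequences and each was given 50% of TPM in both libraries, so no read can tell them apart. The annotation's highest support level, for transcripts whose junctions are all backed by an mRNA, was held by 45 leading NMD transcripts (29.1% of the 1520). In 16 genes (32.1% of the 1520) the start of its coding stretch is not found in the annotation, so the model is incomplete. Among these is Rabggtb-210, whose extra exon is printed above.

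**Figure D2:**
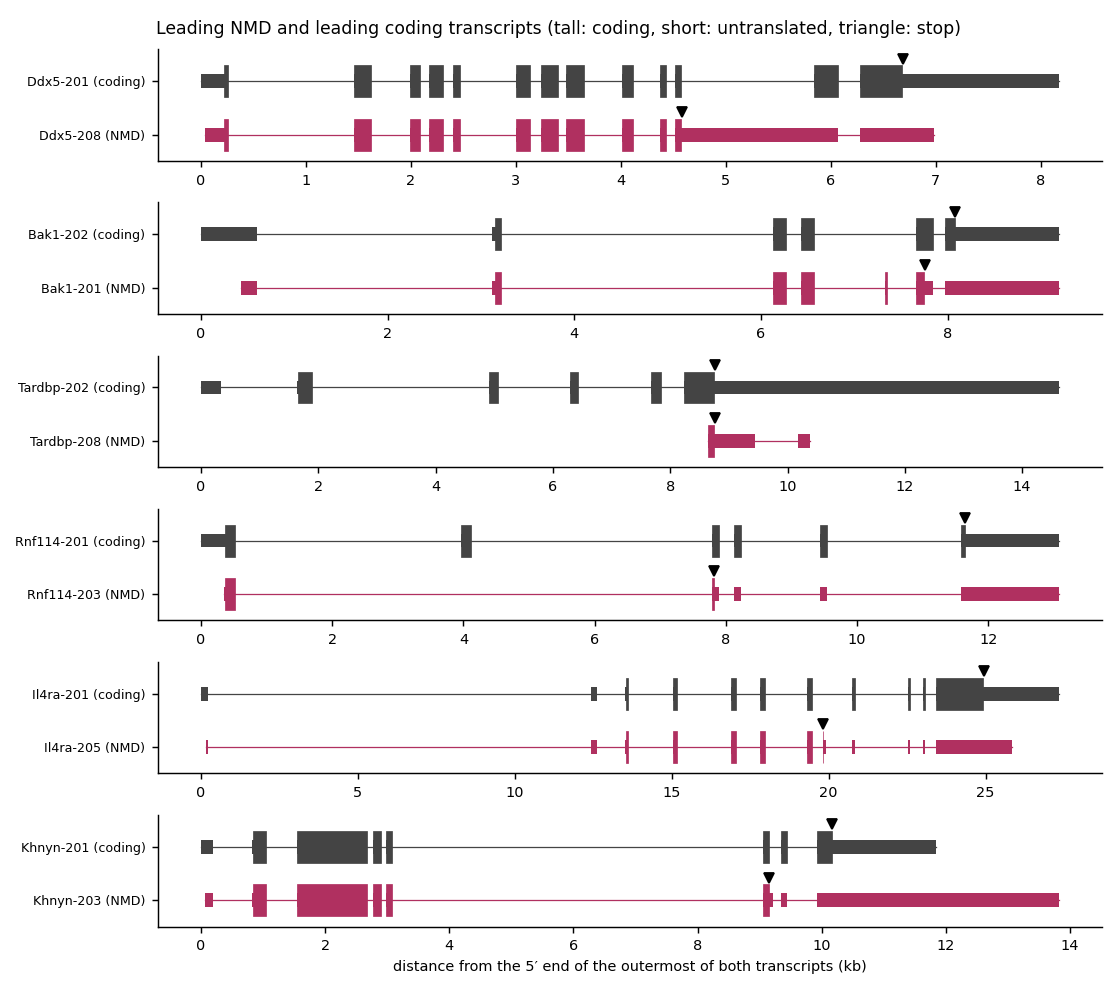
Exon maps of the leading coding transcript (grey) and the leading NMD transcript (red) of 6 genes, as distance in kb from the 5′ end of the outermost of both, where tall boxes are coding, short boxes are untranslated and the triangle is the stop codon. Ddx5-208 keeps an intron, Bak1-201 and Il4ra-205 have an extra exon, Rnf114-203 lacks an exon, Khnyn-203 uses another splice site and Tardbp-208 has an intron after the shared stop.

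Genes that act on RNA formed the largest role group together with those of membrane trafficking, 13 genes each. The grouping by role was made after the genes were known. Ddx5, a DEAD-box RNA helicase of splicing and transcription, was expressed at 406 and 398 TPM in replicates 1 and 2. Its NMD share was 67.9% and 59.9% of TPM, 73.3% and 66.0% of expected counts, and 69.7% and 52.8% in the second quantification, a deposited table estimated straight from the reads. Ddx5-208 keeps the 1265-base intron printed above and had 276 and 205 TPM, against 95.8 and 101 TPM for Ddx5-201, the leading coding transcript. The coding stretch of Ddx5-208 is 1218 bases long, against 1845 in Ddx5-201. The kept intron holds the microRNA gene Mir3064 and the small RNA gene Gm25994. Ddx5 was the only gene of the set with a small RNA gene inside an exon of its leading NMD transcript (0.526% of the 1520). Unspliced Ddx5 RNA holds the same intron bases as Ddx5-208.

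Other RNA-binding proteins of the group gained their NMD share in other ways. Rbmx, an RNA-binding protein of the spliceosome encoded on the X chromosome, had NMD shares of 57.5% and 66.5%. Rbmx-205 had 9.35 and 14.6 TPM and ends in a last exon of its own, with its stop 84 bases before the last junction. Tardbp encodes TDP-43, which is known to limit its own level through its RNA. It had 78.2 and 73.0 TPM and NMD shares of 36.9% and 42.3%. Tardbp-208, the highest of its 10 NMD transcripts, had 14.1 and 24.2 TPM, shares its stop with Tardbp-202 and has its last junction 695 bases after it. Of expected counts, the NMD share of Tardbp was only 12.5% and 13.7%. Tardbp-208 is 1011 bases long, in a model without the start of its coding stretch, and Tardbp-202 is 7477.

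Kinases and cyclins of splicing were also present. Prpf4b, a kinase of the spliceosome, had 66.7 and 69.2 TPM with NMD shares of 38.9% and 41.8%, and the second quantification gave 38.8% and 41.8%. Its leading NMD transcript has the same coding stretch of 3021 bases as Prpf4b-201 and differs in splicing after the stop. Ccnl1, cyclin L1, a partner of splicing-related kinases, had 137 and 118 TPM and NMD shares of 37.2% and 41.6%. Most of the remaining Ccnl1 TPM, 57.6% and 57.3% of the total, was on retained-intron transcripts, and Ccnl1-201, the coding transcript, had 7.14 and 1.29 TPM. Clasrp, an SR-related protein that binds CLK4, had NMD shares of 33.9% and 34.0% and retained-intron shares of 66.1% and 66.0%, and its coding transcript was listed at 0 in both libraries.

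Among the other RNA genes, Eef1b2, a nucleotide exchange subunit of translation elongation factor 1, had NMD shares of 44.4% and 53.9%. Zfp207, a zinc finger protein of the spindle and of splicing, had 89.5 and 108 TPM and shares of 47.0% and 50.7%, with an authors' interval of 1.13 to 36.3 TPM for its leading coding transcript in replicate 1. Paxbp1, a PAX-binding protein, had 100.0 and 85.2 TPM and shares of 39.9% and 36.5%. Khdc4, a KH-domain RNA-binding protein, had 41.1% and 33.8%, and Akap8, a nuclear anchor of protein kinase A, had 33.2% and 34.2%. Trub2, a pseudouridine synthase, had 38.5% and 54.0%. For Rrp7a, a factor of ribosomal RNA processing, TPM gave 39.6% and 43.7% but expected counts only 6.71% and 10.1%.

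The factors of NMD themselves were not in the set. Of 12 genes of the core list (UPF and SMG proteins), 5 were expressed at 10 TPM in both libraries, 2 of these have an annotated NMD transcript, and 0 passed a share of 30%. Smg5, which links the pathway to decay enzymes, had NMD shares of 4.99% and 9.61% at 22.4 and 23.3 TPM. Smg1, the kinase of Upf1, had 68.9 and 68.8 TPM with NMD transcripts listed at 0. Those of Smg6, at 7.35 and 7.2 TPM, were listed at 0 too. In the list of release and decay factors, 4 expressed genes have an NMD transcript and 0 passed. Of these 4, Patl1, a decapping factor, came closest with 20.5% and 25.2%, and in the second quantification it had 36.5% and 37.3%. Below the 10 TPM minimum, Edc3 had a higher mean share than Patl1, with 34.2% and 17.2% at 4.48 and 3.38 TPM. Gspt2 had 19.6% and 10.9% at 0.56 and 0.65 TPM. Of the exon junction complex, 1 expressed gene, Pnn, has an NMD transcript, and it was listed at 0. Magohb, at 2.79 and 3.44 TPM, had NMD shares of 0% and 19.8%. Of the core spliceosome list, 0 of 19 expressed genes with an NMD transcript passed, while of the other splicing regulators 4 of 37 did, Ddx5, Prpf4b, Rbmx and Tardbp. The background for these counts is the 6.12% given above. The medians of the spliceosome genes, 2.47% and 4.16%, lay near those of the 1520, 3.27% and 3.29%. Medians of the other splicing regulators, 7.68% and 8.33%, lay above them, and the difference was not tested.

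Antiviral and inflammasome genes held 38.5% of the NMD TPM of the set in replicate 1 and 31.9% in replicate 2, with 9 genes. Mx1 alone had 508 and 286 TPM of NMD transcripts, where the set had 2249 and 1930. In the second quantification 5 of the 9 had a share of at least 30% in both libraries. That was so for 63.2% of the whole set and 6.38% of the 1520. Of the list of interferon-stimulated genes, 68 were expressed, 19 of these have an NMD transcript, and 4 passed: Mx1, Oas1g, Oasl2 and Ifi35. Of the 1520, 6.12% passed. The median share over the 19 was 7.29% and 7.16%, against 3.27% and 3.29% over the 1520. The difference was not tested.

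Mx1 encodes a dynamin-like GTPase that blocks influenza viruses, and its C57BL/6 allele is known to lack coding exons. It had the highest mean level of the set, with 866 and 444 TPM in replicates 1 and 2. NMD transcripts took 58.6% and 64.4% of this, and Mx1-205 alone had 431 and 248 TPM, against 147 and 104 TPM for Mx1-202. The second quantification put the share of Mx1 at 25.2% and 31.2%, so its place in the set depended on the quantification. The order of the transcripts turned there, with 16.3 and 3.44 TPM for Mx1-205 and 16.8 and 34.1 TPM for Mx1-202. Mx1-205 has no base outside coding exons and differs by 2 junctions. Its coding stretch is 927 bases, against 1191 in Mx1-202.

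The oligoadenylate synthetase family, which senses double-stranded RNA, was present with 2 genes. Oas1g had 137 and 95.2 TPM and NMD shares of 63.8% and 49.8%. Oas1g-203 had 87.1 and 47.4 TPM and Oas1g-201, the only coding transcript, 15.7 and 16.3 TPM, with intervals that did not overlap in either library. Oasl2, a relative with ubiquitin-like domains, had 428 and 397 TPM. Its retained-intron transcripts took 59.3% and 57.7%, more than its NMD share of 31.2% and 35.0%. In the second quantification the NMD share of Oasl2 was 25.0% and 30.8%, under the threshold in replicate 1.

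Guanylate-binding proteins, interferon-induced GTPases that attack the vacuoles of pathogens, were represented by Gbp4 and Gbp6. Gbp6 had 133 and 102 TPM. Its NMD share was 31.0% in replicate 1 and 51.6% in replicate 2, and the second quantification gave 26.0% and 47.7%. Gbp6-203, which skips an exon, had 41.3 and 52.6 TPM, while Gbp6-201, the coding transcript, had 57.3 and 23.5 TPM. Gbp4 had 68.8 and 47.8 TPM and NMD shares of 52.7% and 63.8%. Both genes share exon sequence on the same strand with other annotated genes, Gbp4 with Gbp8 and Gbp9 and Gbp6 with Gm43302, so their split of reads is uncertain.

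Khnyn, an endonuclease-like partner of the antiviral protein ZAP, had the highest mean share of the 87 genes after Bak1, 74.6% and 78.8% at 17.5 and 12.8 TPM. Its share was similar on every scale, 81.4% and 84.6% of expected counts and 71.3% and 79.0% in the second quantification. Khnyn-203 had 13.1 and 10.1 TPM and Khnyn-201, its only coding transcript, 1.63 and 0.640 TPM. It has 2054 bases outside coding exons, the largest part of them in a longer end of the transcript on the exon maps, so reads there bear on where the RNA ends as well as on how it is spliced. Nlrp1b, an inflammasome sensor, had shares of 49.2% and 58.3%, and Dpp8, a peptidase that restrains it, had 30.6% and 34.2%. Ifi35, an interferon-induced protein, had 39.8% and 52.5% through an NMD transcript that keeps an intron and skips an exon.

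Genes of immune signalling and antigen presentation numbered 12. Of these, 10 also had a share of at least 30% in both libraries in the second quantification. The same held for 63.2% of the whole set and 6.38% of the 1520. Sh2b3, an adaptor that dampens cytokine receptor signalling, had NMD shares of 65.2% and 71.1%. Cd300c2, an activating receptor of myeloid cells, had 57.9% and 74.1%, and its only coding transcript had 19.8 and 7.92 TPM. Cd300c2-202, its NMD transcript, had 27.2 and 22.7 TPM. Ctsh, the lysosomal protease cathepsin H, had 205 and 121 TPM and shares of 50.4% and 61.6%. Ctsh-202 skips an exon and keeps a coding stretch of 123 bases, against 999 in Ctsh-201.

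Il4ra, a receptor chain for interleukins 4 and 13, had 67.7 and 37.5 TPM and NMD shares of 51.7% and 39.8%. Il4ra-205 carries the 114-base exon printed above, in which the reading frame ends after 20 bases, and had 35.0 and 14.9 TPM, against 22.4 and 16.7 TPM for Il4ra-201. H2-Eb1, the beta chain of an MHC class II molecule, had shares of 47.5% and 59.3% at 37.6 and 19.8 TPM. Rgs1, which turns off G-protein signals of chemokine receptors, had 45.7% and 51.4%, with nearly all of the rest on retained-intron transcripts (46.1% and 44.3%). Fes, a tyrosine kinase of myeloid cells, had 33.2% and 37.8%, and Fes-210 keeps the intron printed above. Cd200r1, an inhibitory receptor, had 31.9% and 37.0%.

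For Nfam1, an activating receptor with an ITAM motif, the estimates conflicted. NMD shares were 34.1% and 47.7% of TPM, 15.1% and 23.4% of expected counts and 14.4% and 4.05% in the second quantification. The remaining immune genes were Gpsm3 (55.8% and 46.4%) and Dgkz (42.9% and 32.8%), which act on G-protein and diacylglycerol signals, and Nkiras1 (41.2% and 51.4%), an inhibitor of NF-κB activation.

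Bak1, a pore-forming protein of the outer mitochondrial membrane in apoptosis, had the highest NMD share of the set. It was expressed at 14.6 and 15.1 TPM, with NMD shares of 75.0% and 93.5% of TPM, 74.3% and 97.3% of expected counts and 56.3% and 90.9% in the second quantification. Bak1-201, with the 20-base exon printed above, had 6.56 and 9.63 TPM. Bak1-202, the leading coding transcript, had 2.77 TPM in replicate 1 and was listed at 0 in replicate 2. The shares rest on 740 and 624 expected counts for the gene. For a share of counts, Clopper-Pearson 95% intervals were 71.0% to 77.4% and 95.9% to 98.5%, and these cover counting error only, not the assignment of reads or the spread between samples.

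Genes of ubiquitin, SUMO and proteolysis numbered 7, of which 6 had at least 30% in both libraries in the second quantification as well. The same held for 63.2% of the whole set and 6.38% of the 1520. Rnf114, a ubiquitin ligase, had NMD shares of 69.8% and 68.7% at 46.7 and 34.7 TPM. Rnf114-203 skips the second exon of Rnf114-201, which leaves a coding stretch of 171 bases against 687, and had 32.6 and 23.9 TPM against 13.6 and 10.4 TPM for Rnf114-201. In the second quantification Rnf114-203 had 8.91 and 11.5 TPM and Rnf114-201 had 9.40 and 7.71 TPM, so the order turned in replicate 1. Pcnp, a nuclear protein with PEST sequences, had 71.9% and 63.5%. Senp2, a SUMO protease, had 56.2% and 60.7%, and the second quantification put it higher, at 62.9% and 72.6%. Arih2, Rnf14 and Rnf41, which are ubiquitin ligases, and Capn7, a calpain protease, lay between 35.1% and 48.8% in each library.

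Genes of membrane trafficking and secretion were mostly of modest level, with mean values of 11.6 to 27.9 TPM. Zdhhc3, a palmitoyltransferase of the Golgi, had the highest share of them with 62.6% and 67.6%. Tmem208, a protein of the endoplasmic reticulum, had 52.9% and 52.4%, and the transcript that keeps its 149-base intron had 5.42 and 4.24 TPM. Rabggtb, a subunit of the enzyme that attaches lipids to Rab proteins, had 50.1% and 52.1% spread over 9 NMD transcripts. Spcs2, a signal peptidase subunit, had 36.3% and 43.0%, and Dnajc5, a chaperone of exocytosis, had 37.0% and 39.8%, both through the extra exons printed above. Gga1, a Golgi adaptor, was the gene of this group with the least support in the second quantification, 15.0% and 13.4% against 47.8% and 35.9%. Acap2, Cyth2, Grtp1, Tmf1, Uso1, Vac14 and Vps11 ranged from 31.9% to 59.5%.

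Metabolic and mitochondrial genes numbered 11, and 5 of them had at least 30% in both libraries in the second quantification. The same held for 63.2% of the whole set and 6.38% of the 1520. Cdipt, the synthase of phosphatidylinositol, had 58.6% and 62.1%. Ndufa3, a subunit of respiratory complex I, had 59.4% and 58.2%, but it rested on 115 and 129 expected counts, and the authors' posterior mean TPM, an estimate averaged over possible read assignments, put it at 23.3% and 27.7%. Plpp5, a lipid phosphatase, had 35.1% and 56.8%, and Ttpal, a relative of the tocopherol transfer protein, had 34.6% and 57.0%. In the second quantification these were 10.9% and 22.5% for Plpp5 and 14.4% and 17.4% for Ttpal, under the threshold in both libraries. Ahcyl1, Atp5f1, Cyb5r1, Pgs1, Ppcdc, Sdhaf2 and Tk2 lay between 31.4% and 58.7%.

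Transcription and chromatin factors included Zmym5, a zinc finger protein, with 57.1% and 63.6%, Snapc3, a subunit of the complex that starts snRNA transcription, with 56.5% and 56.2%, and Cbx1, a heterochromatin protein, with 52.6% and 41.5%. Cbx1, Crebzf and Elk4 share the stop codon with their coding transcript. Elk4, a partner of serum response factor, had 33.9% and 35.1%, and 14.8% and 15.5% in the second quantification. Crebzf, Mlxip, Smarca2 and Tsc22d1 lay between 33.5% and 46.1% of TPM. The DNA repair genes were Polb, Smc6 and Mms19. Polb, the polymerase of base excision repair, had 45.9% and 49.2% of TPM but 73.2% and 75.5% of expected counts. Polb-202 is 3354 bases long and Polb-201 is 1201. Smc6, of a chromosome-holding complex, had 33.5% and 36.8%, with a mean of 16.9% in the second quantification. Mms19, a factor of iron-sulfur protein assembly, had 33.7% and 31.7%, and retained-intron shares of 59.9% and 67.6%. The mean NMD share of Mms19 was 21.2% in the second quantification, 16.6% by posterior mean TPM and 65.8% of expected counts.

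Genes with other roles included Ppia, cyclophilin A, a prolyl isomerase, at 74.2 and 59.4 TPM with NMD shares of 42.3% and 53.9%. Stard9, a kinesin, had 36.6% and 41.3% of TPM and 63.5% and 69.3% of expected counts. Mroh1, a HEAT-repeat protein, had 41.6% and 47.3% of TPM but only 3.17% and 4.21% of expected counts. Its leading NMD transcript is 388 bases long, in a model without the start of its coding stretch, and Mroh1-202 is 5268. Ppp1cc, a catalytic subunit of protein phosphatase 1, had 37.1% and 40.7%, and its leading NMD transcript keeps an intron. Naa60, an acetyltransferase, and Pcnx, a membrane protein, had 45.7% and 55.1%, and 59.9% and 57.9%. The uncharacterised genes A630001G21Rik and 0610037L13Rik had 43.5% and 34.2%, and 32.8% and 33.3%.

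Retained-intron transcripts took less of these genes than of the 1520 expressed genes with an NMD transcript. This follows in part from the rule, since the shares of a gene add up to its whole. Genes with no annotated retained-intron transcript are included in both medians. The median retained-intron share was 13.7% and 13.3%, against 29.5% and 30.5% over the 1520. An annotated retained-intron transcript was present in 60 genes, and 4 of these, Ccnl1, Clasrp, Mms19 and Oasl2, passed a retained-intron share of 50% in both libraries (16.6% of expressed coding genes with such a transcript). In 8 genes, these 4 and Akap8, Atp5f1, Paxbp1 and Stard9, the retained-intron share was above the NMD share in both libraries. This count is not given for the 1520.

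The second quantification was not used to choose the genes, but it was estimated from the same reads. At a share of at least 30% in both libraries, 55 of the 87 genes were again found, against 6.38% of the 1520 by the same count. In 20 genes the share was under 30% in both libraries, and in 12 in 1 library. The 20 were 0610037L13Rik, A630001G21Rik, Ahcyl1, Akap8, Clasrp, Dpp8, Elk4, Gga1, Mlxip, Mms19, Nfam1, Paxbp1, Plpp5, Sdhaf2, Smarca2, Smc6, Trub2, Tsc22d1, Ttpal and Uso1. Over the 87 genes, the median share in the second quantification was as follows. The median was 37.2% and 40.7%, against 7.18% and 7.03% over the 1520. The share was lower than in the alignment-based tables in both libraries for 60 genes of the set and higher in both for 15. The genes were chosen by a high share in the alignment-based tables, so lower values in another estimate are favoured in advance. Over the 1520 the alignment-based medians were 3.27% and 3.29%, below those of the second quantification. Counts of lower and higher genes are not given for the 1520. Within the set, the lowest mean values in the second quantification were those of Nfam1, Gga1, Elk4, Ttpal and Plpp5. The highest were those of Khnyn, Bak1, Senp2, Nlrp1b and Rbmx. The leading NMD transcript had more TPM than the leading coding transcript in both libraries in 50 genes of the alignment-based tables. Of these, 44 kept that order in both libraries of the second quantification, and 3, Mx1, Tmf1 and Ttpal, had the reverse in both. By the share of expected counts, 71 genes passed (6.91% of the 1520), by the posterior mean TPM 79 (5.53%), and by all 4 measures 44.

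**Figure D3:**
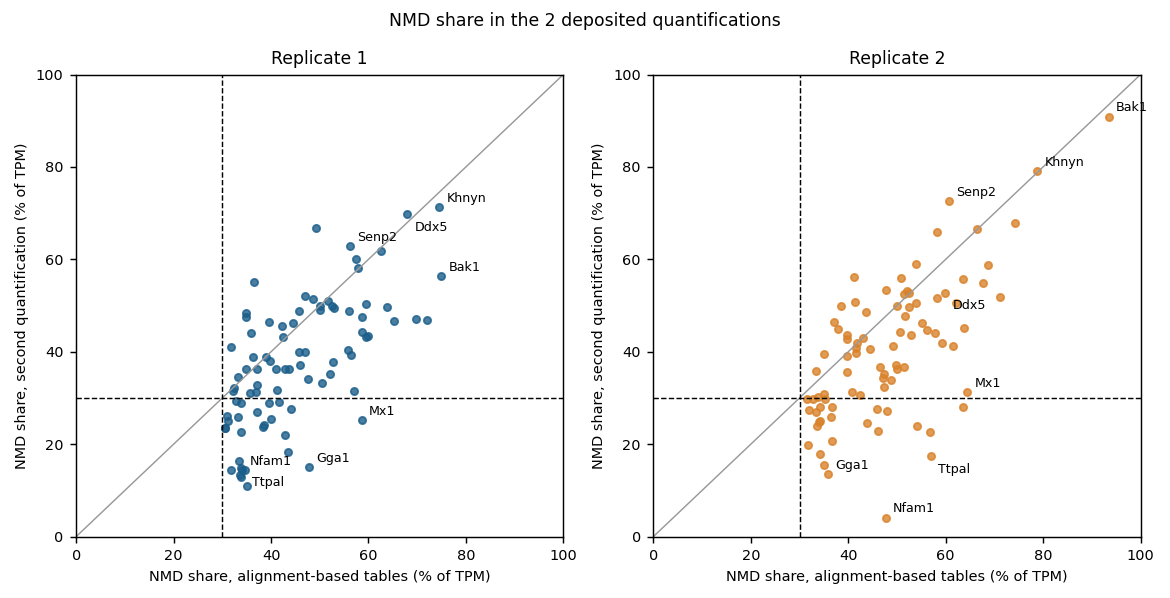
NMD share of each gene in the alignment-based transcript tables (x axis, percent of TPM) and in the second quantification (y axis, percent of TPM), a panel for each replicate, with the line of equal values and dashed lines at 30%. Most points lie below the line of equal values, Mx1 and Gga1 far below it, and Khnyn close to it in both libraries. The genes were chosen by their values on the x axis, which favours points below the line.

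A share of TPM and a share of expected counts answer different questions, since TPM divides each transcript by its length. The median share of expected counts, 45.7% and 46.9%, was close to that of TPM. Single genes moved far: 13 were under 30% of counts in both libraries. Those with the lowest count shares, Mroh1, Rrp7a and Tardbp, have leading NMD transcripts annotated as much shorter than the coding transcript. For none of these transcripts is the start of the coding stretch found, so their models are incomplete. Gbp4 went the other way, with 75.7% and 84.5% of counts, but its leading coding transcript, 709 bases long, is an incomplete model. Over 50% in both libraries by TPM, by expected counts and in the second quantification were 6 genes: Bak1, Cd300c2, Ddx5, Khnyn, Senp2 and Zdhhc3.

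**Figure D4:**
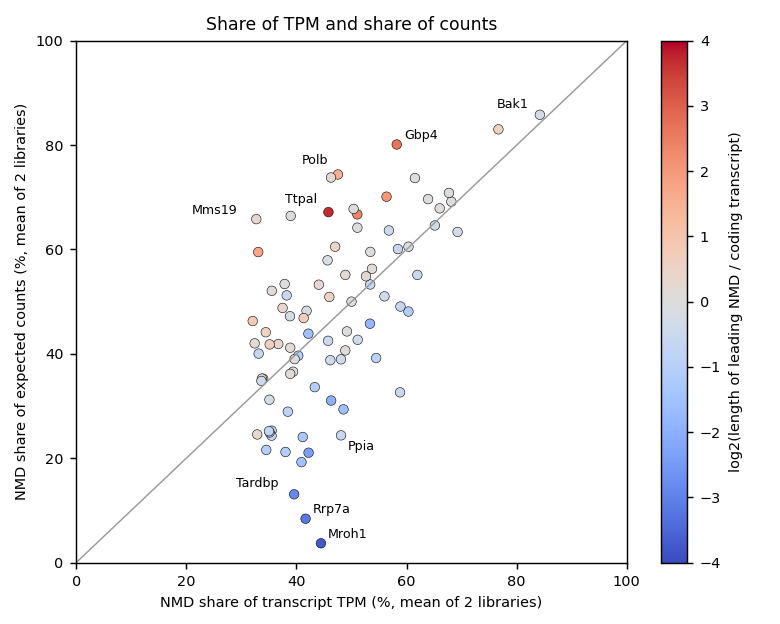
Mean NMD share of expected counts against mean NMD share of TPM for the 87 genes, in percent, coloured by the log2 ratio of the lengths of the leading NMD and coding transcripts, with the line of equal values. Of 48 genes whose NMD transcript is shorter (blue), 33 lie below the line, such as Mroh1, Rrp7a and Tardbp, and of 38 with a longer one (red), 32 lie above it, such as Gbp4 and Polb.

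The authors' intervals on transcript TPM, which belong to the posterior mean and cover read assignment only, were compared between the leading transcripts, a description since the same TPM chose the genes. In 37 genes the lower bound of the leading NMD transcript was above the upper bound of the leading coding transcript in both libraries (3.49% of the 1520), and in 10 the reverse held (78.2%). The lower bound of the leading NMD transcript was above 1 TPM in both libraries for 84 genes (25.7%). The exceptions were Clasrp, Cyth2 and Plpp5.

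In 62 genes both leading transcripts have complete coding stretches that end at different stops. The stretch of the NMD transcript was shorter in 61 of them, with a median of 37.5% of the coding transcript's length and a range of 7.72% to 151%. The longer stretch is that of Snapc3.

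Between the replicates, gene levels after TMM scaling, a correction for library composition, had a median log2 ratio of replicate 2 over replicate 1 of -0.07 over the set and -0.02 over the 1520. With a threshold of an absolute log2 ratio of 1 and a mean count of 100, 0 of the 87 genes were apart, against 2.01% of 10198 genes (edgeR scaling, with no p-value possible from 1 library a side). The 10198 did not have to reach 10 TPM in both libraries, as the 87 did, so the 2 shares are not matched for level. The largest ratios were those of H2-Eb1, -0.98, from 964 and 410 expected counts, Il4ra, -0.77, from 7186 and 3538, Mx1, -0.73, from 47952 and 24151, Ctsh, -0.65, from 6401 and 3410, and Cd300c2, -0.56, from 1369 and 779. All 5 were lower in replicate 2, as were Oas1g at -0.53 and Ifi35 at -0.51. The only gene at 0.50 or more the other way was Gm38394 at 0.51. An absolute ratio of at least 0.50 was thus reached by 8 of 87 genes, 9.20%, and by 14.1% of the 10198. The whole list of 69 interferon-stimulated genes summed to 14253 and 10092 TPM in replicates 1 and 2, and the macrophage identity list of 20 genes to 6059 and 4746 TPM. The part of these differences in the ratios of single genes was not tested, and the amount of starting RNA cannot be told apart from the replicate.

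**Figure D5:**
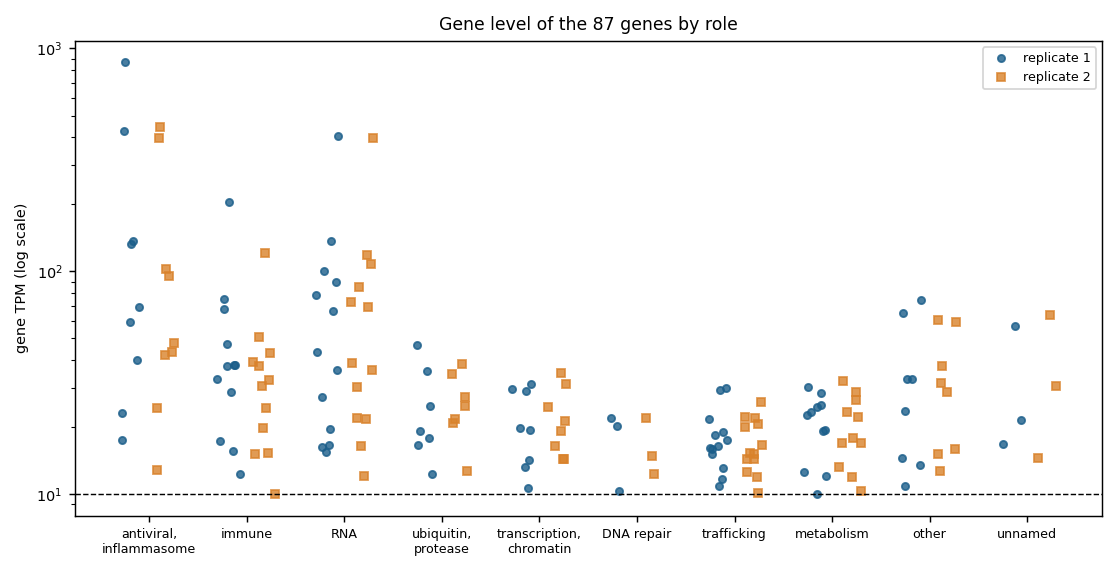
Gene TPM (log axis) of the 87 genes by role, with circles for replicate 1, squares for replicate 2 and a dashed line at the 10 TPM minimum. Mx1, Oasl2 and Ddx5 are the highest points, and the antiviral and immune genes are mostly lower in replicate 2.

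Among genes whose NMD share differed between the libraries at all, it was higher in replicate 2 in 59 of 86 genes of the set, 68.6%, and in 48.2% of 1253 of the 1520. Gm38394 had equal shares. A difference of at least 20 percentage points was found in 3 genes, Ttpal, Plpp5 and Gbp6 (1.64% of the 1520). In each it was higher in replicate 2 (1.45% of the 1520). In the second quantification the difference had the same sign in 63 genes of the set, a count not given for the 1520. For Gbp6 it was 21.7 points there, for Plpp5 11.6 and for Ttpal 2.98. At least 20 points were reached there by Bak1, Gbp6 and Tk2 (1.05% of the 1520), and Tk2 went the other way, with 47.6% in replicate 1 and 27.1% in replicate 2, against 58.7% and 48.0% by TPM. Bak1 and Cd300c2 came next with 18.5 and 16.2 points, and with 34.6 and 9.73 points in the second quantification.

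Neighbouring genes bear on part of the set. A gene on the opposite strand shares exon sequence with 22 of the 87 (16.7% of the 1520), such as Sdr39u1 with Khnyn, Ggnbp1 with Bak1 and Rpl15 with Nkiras1. Exon overlap with another gene on the same strand was found for 6 genes (6.45%). A small RNA gene lay somewhere within 16 genes (11.6%), such as Snord61 in Rbmx and Snord45b and Snord45c in Rabggtb. The genes were spread over 20 chromosomes.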

How the data were processed

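Per the deposited notes, the authors derived gene and transcript tables (expected counts and TPM) from transcriptome alignments, and a second quantification (estimated counts and TPM) straight from reads, with mm10 and GENCODE mouse release 21. Which programs ran, and whether strand was used, is not given in the sources used here. Interval bounds (unit score here) belong to the authors' posterior mean TPM, as deposited. Shares are sums of deposited transcript TPM by annotated type within a gene. Counts were rounded. Log2 ratios used TMM (edgeR 4.0.16, R 4.3.3) and a prior count of 0.5, with DESeq2 1.42.0 size factors as an alternative. Entries naming no annotated gene (26345, with 1.01% and 0.336% of counts) were left out. Exon structures were compared with scripts tested on simulated transcripts. The members, lists and tests were chosen with earlier results of these data known. Genes were named if among the 12 highest shares or levels, the 5 largest replicate ratios or share differences, the 5 extremes of the second quantification, the 3 nearest the threshold on either side, members of a list, or the 3 highest of each NMD factor list. Others are given by role. With 1 group no test was possible.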

Additional observations from a re-analysis of the deposited data

How the results depend on the processing

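No paired analysis was possible because both libraries belong to 1 group. The number of genes was set by the thresholds: a share of 20% or 50% gave 159 or 23 genes, a gene level of 5 or 20 TPM gave 131 or 46, and no minimum gave 291. It ranged from 112 to 128 with 1 library alone, and was 100 by expected counts, 92 by the second quantification and, added after seeing the data, 79 by posterior mean TPM and 77 with only transcripts that have a base or junction of their own. The median NMD share was 38.9% in the second quantification, and 42.9% to 47.4% with a replicate left out. The median retained-intron share was 5.91% of expected counts and 16.3% in the second quantification, and 13.3% to 13.7% with a replicate left out. In the second quantification 55 genes passed 30%, or 60 to 62 with a replicate left out, and 12 passed 50%. Genes differing between replicates by 20 points were 3 by TPM and 1 by posterior mean TPM, and 22 differed by 10 points. Against all coding transcripts, 2 genes had a new first exon and 6 a new last exon. No gene was apart between replicates under 5 other scalings and filters. The cause of these shifts was not tested. Depth limits the shares of genes with few counts, such as Ndufa3 with 115 and 129.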
